A study of Komagataella phaffii GS115 with 9 samples.

Results

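The segment described here is a stretch of chromosome 4 of *Pichia pastoris* (*Komagataella phaffii*), and its members are the 56 genes with consecutive locus tags from CHR4-0055 to CHR4-0110, of 5557 features in the table of the series. The stretch was chosen around a run of neighbours with higher values in an evolved strain than in its parent at 28 °C, so the values of that comparison describe the members and were not used to test them. RNA was sequenced from 9 libraries, 3 for each of 3 groups, all from cells collected after 60 h of methanol induction in flask cultures (BMGY, then BMMY medium). WT_Met is the parent at 28 °C, Mut_Met is the robust mutant at 28 °C, and Mut_Met_37C is the same robust mutant induced at 37 °C. Both strains carry a recombinant lipase gene, *RCL*, under the methanol-inducible *AOX1* promoter. The robust mutant, named G14 in the labels and described there as cross-tolerant to oxidative and thermal stress, is a strain evolved from the parent by adaptive laboratory evolution, so the strain comparison rests on a single evolved strain. No library of the parent at 37 °C is among the samples.

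*P. pastoris* is a methylotrophic yeast that is widely used to secrete recombinant proteins. In adaptive laboratory evolution, a strain is propagated under a stress until tolerant cells take over, and both point mutations and gains or losses of chromosome segments are known outcomes in yeasts. As background, a gained segment raises the DNA dose of all genes on it, whereas a changed promoter acts on a gene or a divergent pair, and neighbouring genes can also share the state of their chromatin. DNA of these strains was not analysed here, and the part of any of these in the values below was not tested. The locus tags carry the prefix PP7435, and none of the 56 was found in the reference table of gene names, which covers strain GS115, so the members are given by tag with no gene name or role. The order of the genes is that of the tag numbers, and it was not checked against genome coordinates.

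The values have the properties of FPKM and are called so here, although no source names their unit. In FPKM the reads of a gene are set against its length and the size of the library. Whole reads were recovered from the steps between the values, 13131111 to 15945465 reads per library. The library size behind the values was 0.874 to 0.925 times these reads in the 6 libraries at 28 °C and 1.15 to 1.23 times in the 3 libraries at 37 °C, so the scaling differs between the temperatures. Replicate 1 of Mut_Met_37C stood apart from the other replicates. The chi-square per degree of freedom between its reads and those of the other Mut_Met_37C libraries was 48.5 and 49.8, against 3.84 to 8.55 for every other pair of replicates. As deposited, the median log2 fold changes at 37 °C and the counts of members that passed the tests are therefore also given without it. Quartiles and counts by ratio at 37 °C are given with all libraries only. Differences were taken on log2(FPKM + 1) with limma across all genes, which understates the fold of low genes, and a gene was tested where its mean reached 1 FPKM in one of the groups compared. Of the 56 members, 54 were tested in every comparison, and CHR4-0070 and CHR4-0074 were not.

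The raised genes formed a run from CHR4-0073 to CHR4-0090. This is the stretch of consecutive members whose log2 fold changes, each less 0.5, added up to the most, and it has 18 members. In all 17 of its members tested between the strains, the 3 Mut_Met libraries lay above the 3 WT_Met libraries, whereas this was seen for 32.2% of all tested genes. On the log2 scale the fold changes of these 17 had a median of 0.97 (quartiles 0.76 and 1.34), and the ratio of the mean FPKM of Mut_Met to that of WT_Met had a median of 2.0 and ranged from 1.15 to 3.00. The 18 members before the run and the 20 members after it had medians of -0.012 and -0.020 in those tested, and the median over all tested genes was -0.037. A gene was called where limma gave a Benjamini-Hochberg adjusted p under 0.05 together with a log2 fold change above 1 in size. By this rule 11 of the 54 members were called, 8 higher and all in the run, 3 lower and all outside it, beside 3.58% of all tested genes (1.76% higher and 1.82% lower). By the adjusted p alone 37 members were past the threshold, beside 66.3% of all tested genes. As the members were chosen on this comparison, nothing is read from these shares.

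**Figure D1:**
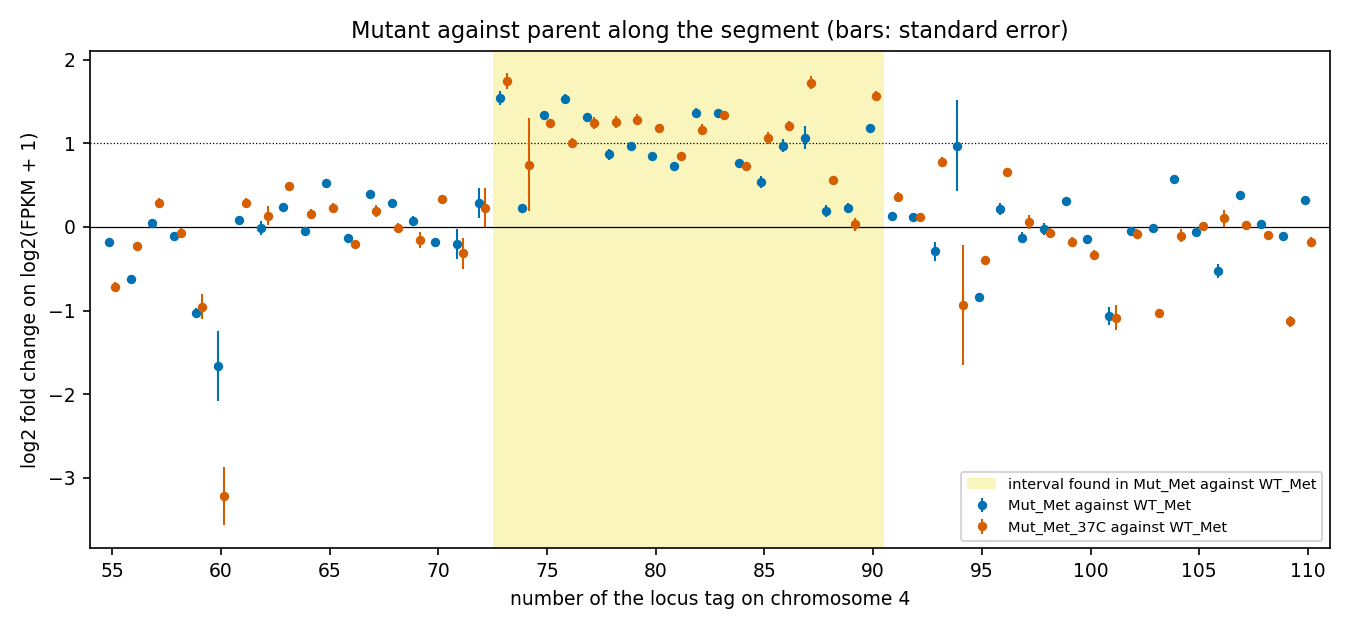
Log2 fold change on log2(FPKM + 1) against the number of the locus tag on chromosome 4, for Mut_Met (blue) and Mut_Met_37C (orange) against WT_Met; bars are standard errors of limma (none where a gene was not tested), the shaded band is the run of 18 members, and the dotted line marks a log2 fold change of 1. Before tag 73 and after tag 90 most points scatter around 0, with some low and some high ones. There Mut_Met lies between -1.67 (tag 60) and 0.98 (tag 94), and Mut_Met_37C between -3.22 (tag 60) and 0.78 (tag 93). Tags 60 and 94 have few reads. In the run the Mut_Met points lie at 0.54 or above from tag 75 to tag 87, at 0.19 and 0.23 at tags 88 and 89, and at 1.19 at tag 90.

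The values stepped up at the lower edge of the run. The last member outside, CHR4-0072, had low values of 4.24, 3.49 and 3.87 FPKM in WT_Met, 5.38, 4.53 and 4.88 in Mut_Met and 6.64, 3.84 and 3.98 in Mut_Met_37C. The first member inside, CHR4-0073, had 23.2, 18.8 and 19.1 FPKM in WT_Met, 57.0, 62.5 and 63.8 in Mut_Met and 71.6, 63.9 and 75.7 in Mut_Met_37C. Each mutant library was thus well above each WT_Met library at CHR4-0073, with 20.4 ± 2.44 FPKM (SD, n = 3) in WT_Met and 61.1 ± 3.60 FPKM (SD, n = 3) in Mut_Met, and its ratio of means, 3.00, was the highest among the tested members of the run at 28 °C. At CHR4-0072 all Mut_Met libraries were also higher, as the lowest Mut_Met value lay just above the highest WT_Met value and the ratio of means was 1.28.

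Of the genes just before this edge, CHR4-0070 had too few reads to be set against the run. For Mut_Met against WT_Met the 95% confidence intervals of the log2 fold change were -0.12 to 0.69 at CHR4-0072 and -0.62 to 0.22 at CHR4-0071. Both lie below the median of the run, 0.97, but reach its lowest value, 0.19. CHR4-0071, of 330 bases, had 50, 62 and 44 reads in WT_Met and 33, 52 and 50 in Mut_Met, and these ranges overlap. CHR4-0070 had 3, 3 and 1 reads in WT_Met, 1, 3 and 0 in Mut_Met and 8, 7 and 5 in Mut_Met_37C. At the counts of CHR4-0070 a difference like that of the run was not detectable, as the ratio of Mut_Met to WT_Met was 0.57 with an exact 95% interval of 0.12 to 2.25, which covers counting error only. The nearest member before the run with high values was CHR4-0069, of 219 bases, at 4933, 4869 and 5179.9 FPKM in WT_Met, 5618, 5009 and 5141 in Mut_Met and 4581, 4224 and 4690.2 in Mut_Met_37C. It is the most abundant of the 56 members, and its groups at 28 °C overlap.

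The second member inside the run, CHR4-0074, was almost silent. It had 1, 6 and 2 reads in WT_Met, 9, 1 and 7 in Mut_Met and 25, 11 and 19 in Mut_Met_37C. The ranges of the strains at 28 °C overlap, with a ratio of 1.89 and an exact 95% interval of 0.80 to 4.81. It passed the filter on low values only in the comparisons with Mut_Met_37C, where it was highest, so it is left out of the counts of 17 members.

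After this gap came 3 members with large ratios. CHR4-0075 had 56.7, 57.7 and 52.9 FPKM in WT_Met, 149.6, 141 and 137 in Mut_Met and 135, 136 and 129 in Mut_Met_37C. The next gene, CHR4-0076, had 107, 94.8 and 102 FPKM in WT_Met, 310.3, 290.0 and 285 in Mut_Met and 199, 211 and 204 in Mut_Met_37C. CHR4-0077, one of the longest members with 3138 bases, had 45.4, 47.1 and 46.5 FPKM in WT_Met, 119, 112 and 121 in Mut_Met and 101, 115 and 119 in Mut_Met_37C. The mutant libraries at 28 °C were 2.53 to 2.91 times WT_Met in means over these 3 genes, and the strains were far apart relative to the spread of replicates. At 37 °C the deposited values of CHR4-0075 and CHR4-0076 were lower than at 28 °C in all 3 libraries, and all stayed above every WT_Met library. The fall at CHR4-0075 was small and did not pass the test (adjusted p = 0.15 from limma). Scaled to the sum of the recovered reads instead, CHR4-0075 was higher at 37 °C by 0.30 on the log2 scale (adjusted p = 0.0011 from limma). The median over all tested genes was 0.36 under that scaling.

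The following 4 genes were higher in the mutant by a smaller ratio at 28 °C. CHR4-0078 had 50.3, 55.6 and 58.6 FPKM in WT_Met, 95.3, 105 and 103 in Mut_Met and 142, 128 and 128 in Mut_Met_37C. CHR4-0079, the longest member with 3600 bases, had 32.3, 31.3 and 33.9 FPKM in WT_Met, 64.2, 63.8 and 65.4 in Mut_Met and 75.6, 85.0 and 81.4 in Mut_Met_37C. CHR4-0080, the shortest tested member of the run with 387 bases, had 161, 163 and 172 FPKM in WT_Met, 303, 285 and 309 in Mut_Met and 394, 359 and 376 in Mut_Met_37C. All 3 thus stepped up from WT_Met to Mut_Met and again to Mut_Met_37C, with no overlap between any of the groups. CHR4-0081 had 95.3, 96.6 and 89.7 FPKM in WT_Met, 158, 154 and 156 in Mut_Met and 167, 171 and 172 in Mut_Met_37C. Its groups also did not overlap, and its ratio of means was 1.66 at 28 °C and 1.81 at 37 °C.

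The ratios at 28 °C then were large again for a pair of neighbours. CHR4-0082 had 105, 111 and 117 FPKM in WT_Met, 277, 274 and 309.9 in Mut_Met and 232, 260.0 and 258 in Mut_Met_37C. Chr4-0083 had 61.8, 65.6 and 61.2 FPKM in WT_Met, 167, 157 and 166 in Mut_Met and 160.4, 162 and 159 in Mut_Met_37C. Their ratios of means at 28 °C were 2.59 and 2.60, close to those of CHR4-0075 and CHR4-0077. The next pair had smaller ones. CHR4-0084 had 86.5, 82.8 and 83.8 FPKM in WT_Met, 146, 140.3 and 145 in Mut_Met and 148, 140.2 and 133 in Mut_Met_37C, and CHR4-0085 had 115, 105 and 116 FPKM in WT_Met, 168, 148 and 174 in Mut_Met and 213, 250.3 and 241 in Mut_Met_37C. The ratio at CHR4-0084 was alike at both temperatures, 1.70 and 1.66, while that at CHR4-0085 was 1.46 at 28 °C and 2.10 at 37 °C.

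The upper end of the run was less clear than the lower one. CHR4-0086 had 30.4, 29.4 and 31.7 FPKM in WT_Met, 63.9, 53.6 and 65.8 in Mut_Met and 67.9, 76.3 and 71.0 in Mut_Met_37C. CHR4-0087 had 33.8, 36.1 and 39.5 FPKM in WT_Met, 81.7, 60.8 and 93.7 in Mut_Met and 112, 131 and 126 in Mut_Met_37C. Replicate 2 of Mut_Met was the lowest of its group at both genes, and at CHR4-0087 the Mut_Met libraries spread widely, 78.7 ± 16.7 FPKM (SD, n = 3), although all of them lay above WT_Met. The next 2 genes showed little difference at 28 °C. CHR4-0088 had 38.0, 38.9 and 38.8 FPKM in WT_Met, 44.2, 40.3 and 48.3 in Mut_Met and 56.4, 56.7 and 59.3 in Mut_Met_37C. CHR4-0089 had 50.0, 51.9 and 50.6 FPKM in WT_Met, 63.1, 57.2 and 59.5 in Mut_Met and 45.9, 56.8 and 54.0 in Mut_Met_37C. The groups at 28 °C did not overlap at either gene, but the ratios of means were only 1.15 and 1.18. At 37 °C the pair parted in the deposited values, with a ratio to WT_Met of 1.49 at CHR4-0088 and 1.03 at CHR4-0089, where the groups overlap. Scaled to the sum of the recovered reads, CHR4-0089 was above WT_Met by 0.47 on the log2 scale (adjusted p = 0.0014 from limma). The median over all tested genes was 0.41 under that scaling.

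The last raised member was CHR4-0090, the most abundant gene of the run. It had 188, 192 and 191 FPKM in WT_Met, 427, 446 and 431 in Mut_Met and 538, 604 and 562 in Mut_Met_37C. The groups were far apart, with 190.2 ± 2.33 FPKM in WT_Met, 434 ± 10.1 in Mut_Met and 568 ± 33.7 in Mut_Met_37C (SD, n = 3 each). The first member outside, CHR4-0091, had 58.5, 57.0 and 58.4 FPKM in WT_Met, 67.0, 62.4 and 61.9 in Mut_Met and 70.5, 78.1 and 75.3 in Mut_Met_37C. CHR4-0092 had 43.2, 43.2 and 42.3 FPKM in WT_Met, 44.4, 48.0 and 47.4 in Mut_Met and 46.4, 48.3 and 45.0 in Mut_Met_37C. Both were higher in each Mut_Met library than in each WT_Met library by small amounts, with ratios of means of 1.10 and 1.09. At CHR4-0093 the order of the strains turned, with 27.2, 26.4 and 27.3 FPKM in WT_Met, 23.7, 17.9 and 24.7 in Mut_Met and 47.8, 49.3 and 44.5 in Mut_Met_37C.

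The position of the upper edge therefore depended on the criterion. With 0.7 subtracted in place of 0.5, the interval ended at CHR4-0087, as it also did for replicate 2 of Mut_Met taken alone against the mean of WT_Met. The longest stretch of members whose groups did not overlap ran from CHR4-0075 to CHR4-0092, since CHR4-0074 broke it at the lower end and the small differences at CHR4-0088, CHR4-0089, CHR4-0091 and CHR4-0092 counted as much as the large ones. Replicates 1 and 3 of Mut_Met each gave CHR4-0073 to CHR4-0090, and so did each fit that left out 1 library.

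**Figure D2:**
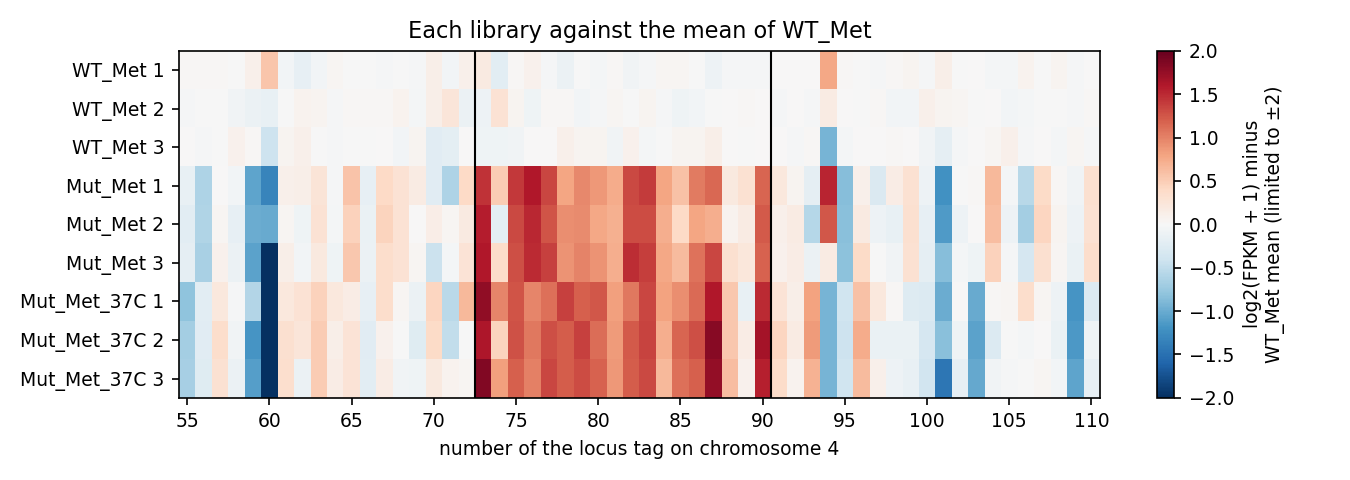
Difference of log2(FPKM + 1) in each of the 9 libraries from the mean of WT_Met, by locus tag number (red higher, blue lower, limited to 2 in size), with vertical lines at both ends of the run. The 6 mutant rows are red from tag 73 to tag 87 apart from the almost silent tag 74, and red again at tag 90, while the WT_Met rows are pale except at tags 60 and 94, which have few reads.

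At 37 °C the interval search gave the same run. For Mut_Met_37C against WT_Met it extended from CHR4-0073 to CHR4-0090, where the 17 members had a median of 1.21 on the log2 scale (quartiles 1.01 and 1.28), or 1.22 without replicate 1 of Mut_Met_37C. The WT_Met libraries are shared by both comparisons, and temperature differs together with the strain in this one. Of the 17 members, 16 had all Mut_Met_37C libraries above those of WT_Met, beside 34.9% of all tested genes, and CHR4-0089 was the exception. Without replicate 1 of Mut_Met_37C this held for 17 of 17, as it did with all libraries when the values were scaled to the summed reads. The share of 34.9% does not apply to these settings, and no share over all genes was taken for them. Both make such a result easier to reach, as fewer libraries are compared or the values of most genes at 37 °C are raised. Here 17 of 55 members were called, beside 12.3% of all tested genes, and 13 of them were higher and in the run, beside 3.83% higher. Without replicate 1 of Mut_Met_37C, 18 were called, 13 of them higher and in the run. By the adjusted p alone 37 members passed, or 40 without that replicate, beside 72.3% of all tested genes. As the WT_Met libraries are those that chose the members, nothing is read from these shares either. The members before and after the run had medians of -0.0087 and -0.090, or -0.036 and -0.12 without replicate 1 of Mut_Met_37C. The edges were also found in single libraries, as replicates 2 and 3 of Mut_Met_37C gave CHR4-0073 to CHR4-0090 and replicate 1 gave CHR4-0072 to CHR4-0090. With values scaled to the summed reads instead, the median over all tested genes moved from -0.033 to 0.41, that of the run became 1.64, and the interval ran from CHR4-0061 to CHR4-0093.

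In each mutant library the run stood above the parent. The members and the run were chosen with the Mut_Met and WT_Met libraries, so the medians below describe the run and were not used to test it. The median difference of the 17 members from the mean of WT_Met was 1.04, 0.93 and 1.09 on the log2 scale in the 3 Mut_Met libraries and 1.13, 1.22 and 1.20 in the 3 Mut_Met_37C libraries. Each WT_Met library set against the mean of the other 2 gave -0.030, -0.0051 and 0.014. The members outside the run gave between -0.064 and 0.046 before it and between -0.13 and 0.024 after it in the mutant libraries.

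The members of the run differed widely among themselves. Their log2 fold changes at 28 °C ranged from 0.19 to 1.54, while the median standard error was 0.052. Of the 17 ratios of means at 28 °C, 3 were under 1.5, 5 were from 1.5 to 2, 3 from 2 to 2.5 and 6 from 2.5 to 3. At 37 °C, 9 of the 17 ratios to WT_Met were from 2 to 2.5, 2 were under 1.5, 2 from 1.5 to 2, 2 from 2.5 to 3 and 2 above 3. The quartiles of the log2 fold changes were thus closer together at 37 °C than at 28 °C, and this difference in spread was not tested. The mean FPKM of the 17 genes in WT_Met had a median of 55.8 and ranged from 20.4 to 190.2, against a median of 110.3 for the 37 tested members outside. In the mutant this order was turned, with medians of 143 in the run and 96.9 outside in Mut_Met, and of 133 and 93.8 in Mut_Met_37C. The recovered lengths had a median of 1242 bases in the run and 1104 outside it. The log2 fold change at 28 °C had a Spearman rho of -0.22 with length over the 17 members, which lie in the same libraries and are not independent.

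**Figure D3:**
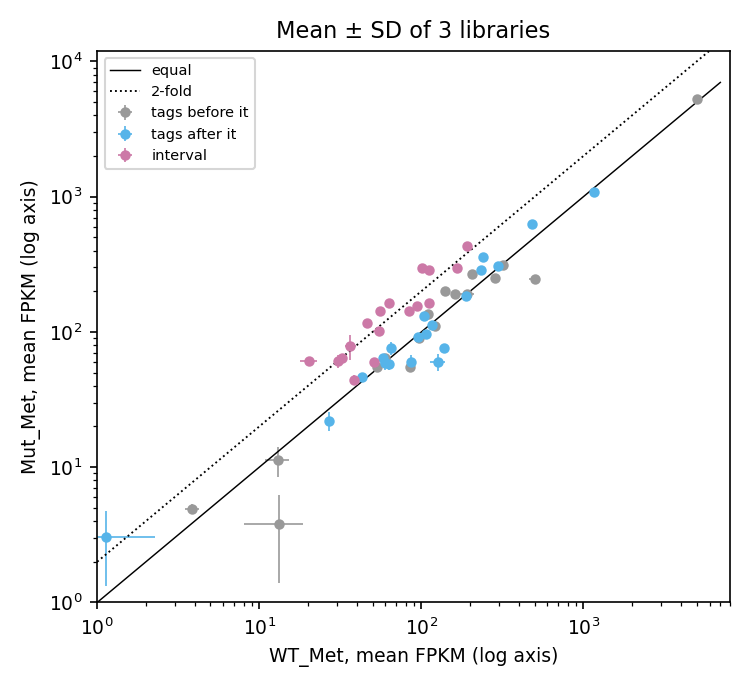
Mean FPKM of Mut_Met against mean FPKM of WT_Met on log axes for the members with a mean of at least 1 FPKM over the 9 libraries, with SD of 3 libraries as bars, the line of equal values and the dotted line of 2-fold higher values. Members of the run (pink) lie around the dotted line over WT_Met levels from 20.4 to 190.2 FPKM, and most members before it (grey) and after it (light blue) lie around the line of equal values.

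Outside the run, the strain differences were of both signs. Of the 37 tested members, 12 had all Mut_Met libraries above those of WT_Met and 11 had all of them below, beside 32.2% higher and 39.1% lower of all tested genes. The 3 members called lower were CHR4-0059, CHR4-0060 and CHR4-0101. The call of CHR4-0059 lies just past a size of 1, at -1.03 on the log2 scale. It was lost with values scaled to the summed reads (-0.98) and without replicate 1 of WT_Met (-0.98). With summed reads CHR4-0079 and CHR4-0086, in the run, were called higher instead, at 1.01 and 1.02. CHR4-0059 had 538, 461 and 509 FPKM in WT_Met, 242, 252 and 239 in Mut_Met and 335, 220.2 and 234 in Mut_Met_37C, so that both mutant groups lay below WT_Met and replicate 1 of Mut_Met_37C was the highest of its group. CHR4-0101 had 137, 132 and 112 FPKM in WT_Met, 54.0, 57.0 and 69.9 in Mut_Met and 63.2, 70.3 and 46.0 in Mut_Met_37C, with the mutant groups alike and both below WT_Met. CHR4-0060, of 72 bases, had 17, 10 and 8 reads in WT_Met, 4, 5 and 1 in Mut_Met and 1, 0 and 1 in Mut_Met_37C, a ratio of Mut_Met to WT_Met of 0.29 with an exact 95% interval of 0.13 to 0.59.

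The members outside the run with the largest log2 fold changes at 28 °C were CHR4-0094, CHR4-0104 and CHR4-0065. The value of CHR4-0094, of 72 bases, rests on 2, 1 and 0 reads in WT_Met and 4, 3 and 1 in Mut_Met, a ratio of 2.67 with an exact 95% interval of 0.64 to 15.6, so that no difference was detectable at this depth. CHR4-0104 had 233, 239.9 and 245 FPKM in WT_Met, 377, 366 and 329 in Mut_Met and 244, 199 and 228 in Mut_Met_37C. CHR4-0065 had 139, 142 and 139 FPKM in WT_Met, 208, 193 and 204 in Mut_Met and 155, 169 and 170.1 in Mut_Met_37C. The ratios to WT_Met at 28 °C were 1.49 and 1.44. In these values Mut_Met_37C overlapped WT_Met at CHR4-0104 and lay above all WT_Met libraries, but below those of Mut_Met, at CHR4-0065. The abundant gene CHR4-0107 had 478, 478 and 482 FPKM in WT_Met, 626, 648 and 602 in Mut_Met and 491, 482 and 490.3 in Mut_Met_37C. The lower level at 37 °C depends on the scaling at CHR4-0065 and CHR4-0107, where the log2 fold changes of Mut_Met_37C against Mut_Met were -0.29 and -0.36 as deposited but 0.10 and 0.04 with summed reads, and not at CHR4-0104, with -0.68 and -0.28.

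**Figure D4:**
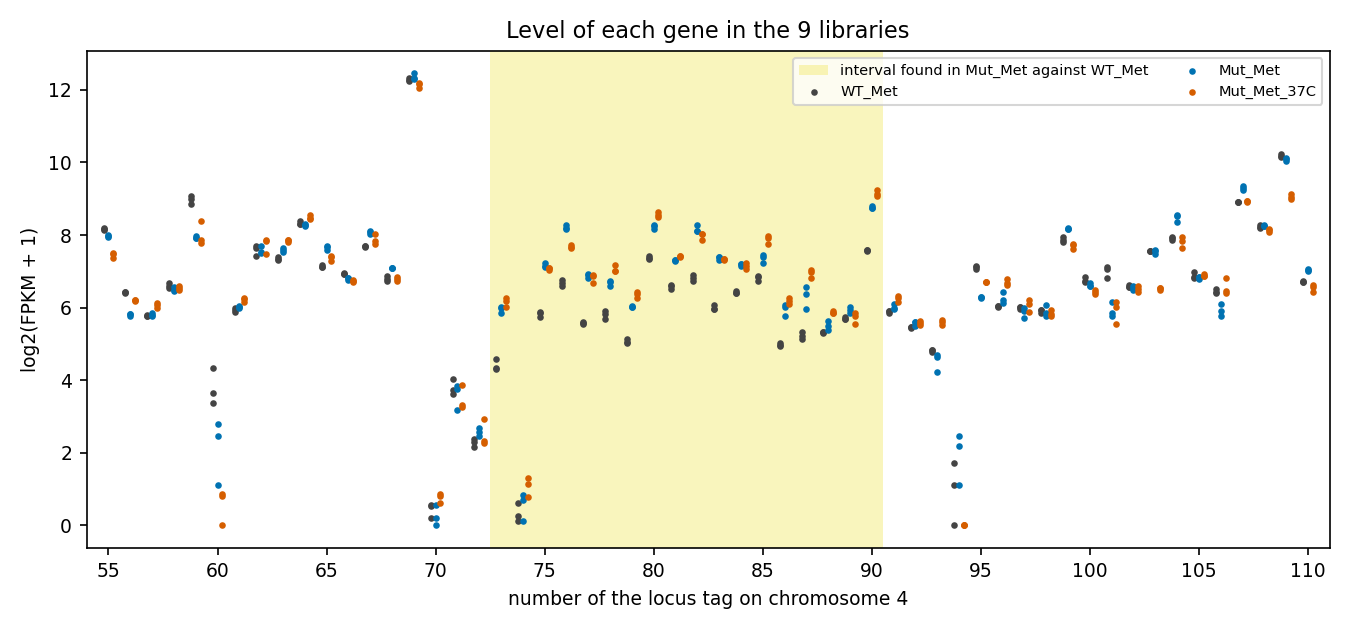
Level of each of the 56 members as log2(FPKM + 1) in the 9 libraries against the number of the locus tag, with WT_Met in grey, Mut_Met in blue and Mut_Met_37C in orange, and the run shaded. In the shaded band the mutant points lie above the grey ones except at the almost silent tag 74 and, at 37 °C, at tag 89, and outside it the groups lie close together for most tags, with the highest level at tag 69.

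The robust mutant at 37 °C was compared with the same strain at 28 °C, which is not the comparison that chose the members but shares the Mut_Met libraries with it. Of the 55 members tested, 36 passed an adjusted p under 0.05 from limma, beside 69.4% of all tested genes, and 20 of these rose and 16 fell. Of the 18 members of the run, 10 rose and 2 fell, beside 33.2% higher and 36.2% lower of all tested genes. Without replicate 1 of Mut_Met_37C, 19 members rose and 16 fell of 54 tested, with 9 and 1 of 17 in the run. As deposited, no member of the run also passed a log2 fold change of 1 in size, while 5 members outside it did (1 higher and 4 lower), beside 11.0% of all tested genes (3.96% higher and 7.05% lower). The median log2 fold change of the 17 members was 0.20, and 0.19 without replicate 1 of Mut_Met_37C, while the members before and after the run had medians of -0.057 and -0.041. Without that replicate the medians before and after the run were -0.081 and -0.087. The median over all tested genes was -0.025, and it was 0.36 with values scaled to the summed reads. With that scaling 36 members rose and 5 fell, and in the run 14 rose and 0 fell. The shares of all tested genes above are for the deposited values and not for this scaling, so nothing is read from these counts. The median of the run became 0.59, and the members before and after it had medians of 0.33 and 0.35. The direction of small changes with temperature thus depends on the scaling.

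The largest rise in the run was that of CHR4-0087, with a log2 fold change of 0.65 (95% confidence interval 0.33 to 0.98, adjusted p = 0.0035 from limma). CHR4-0085 rose by 0.52 (95% confidence interval 0.33 to 0.72, adjusted p = 6.5e-04 from limma). CHR4-0078, CHR4-0090 and CHR4-0088 rose by 0.39, 0.39 and 0.37 on the log2 scale. At all 5 genes the 3 libraries at 37 °C lay above the 3 at 28 °C. CHR4-0076 was the member of the run that fell most, by 0.52 on the log2 scale (adjusted p = 6.8e-05 from limma), and CHR4-0082 fell by 0.20 (adjusted p = 0.037 from limma). With values scaled to the summed reads, the log2 fold change of CHR4-0076 was -0.13 (adjusted p = 0.089 from limma), so its fall no longer passed the test. That of CHR4-0082 was 0.19 (adjusted p = 0.066 from limma), a turn of direction. As deposited, CHR4-0077, Chr4-0083 and CHR4-0084 did not pass the test, with 95% confidence intervals of -0.24 to 0.09, -0.14 to 0.09 and -0.17 to 0.10. Scaled to the summed reads they were higher by 0.32, 0.37 and 0.36 (adjusted p = 0.0091, 3.4e-04 and 3.5e-04 from limma). The median over all tested genes was 0.36 under that scaling.

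**Figure D5:**
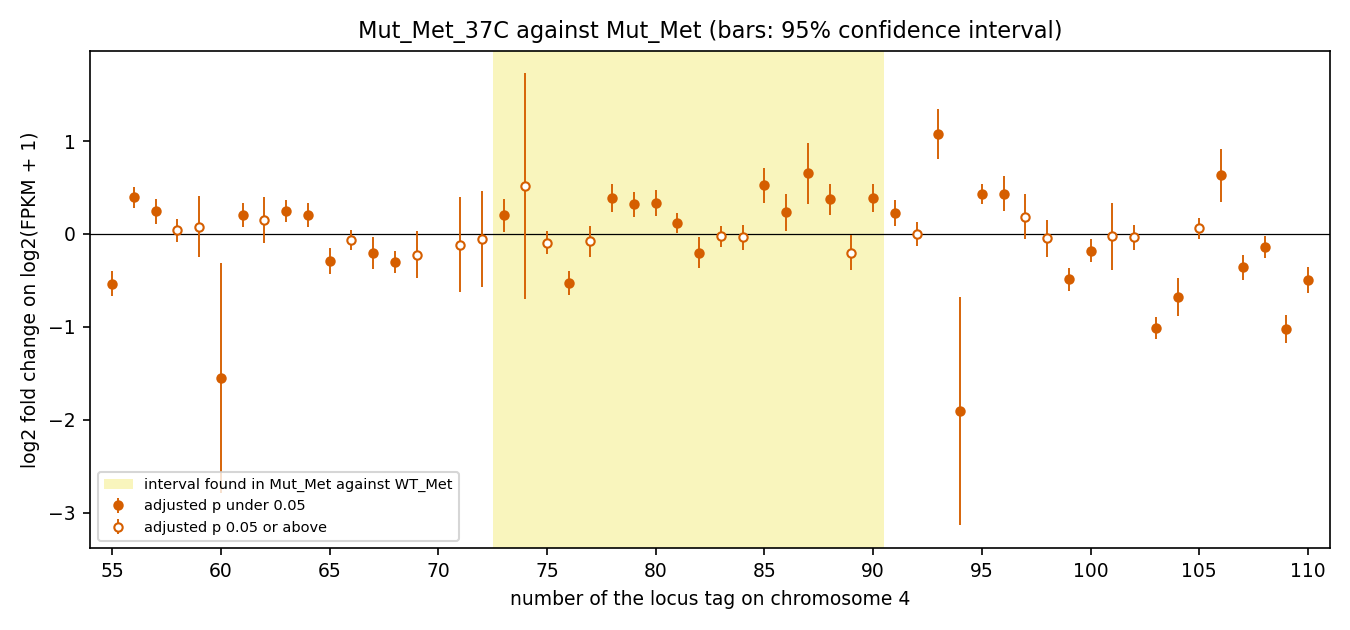
Log2 fold change of Mut_Met_37C against Mut_Met on log2(FPKM + 1) by locus tag number, with 95% confidence intervals of limma, filled points for an adjusted p under 0.05, and the run shaded; the untested tag 70 is not drawn. Within the run the filled points lie between -0.52 and 0.65, and outside it 5 members pass a size of 1.

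As deposited, the changes with temperature past a log2 fold change of 1 in size lay outside the run. CHR4-0093 rose from 22.1 ± 3.70 to 47.2 ± 2.48 FPKM (SD, n = 3 each), or by 1.07 on the log2 scale (limma, adjusted p = 6.8e-05). CHR4-0103 had 189, 186 and 189 FPKM in WT_Met, 191, 189 and 178 in Mut_Met and 92.9, 89.1 and 92.4 in Mut_Met_37C. Its values were alike in both strains at 28 °C and lower in all 3 libraries at 37 °C, and it fell by 1.01 on the log2 scale (adjusted p = 1.3e-06 from limma). CHR4-0109 had 1139.5, 1149 and 1199.7 FPKM in WT_Met, 1103, 1083 and 1056 in Mut_Met and 511, 524 and 559.9 in Mut_Met_37C, and it fell by 1.02 on the log2 scale (adjusted p = 3.8e-06 from limma). Scaled to the summed reads, the log2 fold changes of these 3 genes were 1.46, -0.62 and -0.63, with the same direction, but CHR4-0103 and CHR4-0109 were no longer past a size of 1. In their place CHR4-0087, in the run, with 1.05, and CHR4-0106, outside it, with 1.02, were called higher, so that 5 members were called under both scalings but 3 of them were shared.

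The other 2 calls rest on few reads. Both genes passed the filter on low values here only through Mut_Met, the group where they were high, so the filter favoured a fall. CHR4-0060 had 2 reads in the 3 libraries at 37 °C and 10 in the 3 at 28 °C, a ratio of 0.14 with an exact 95% interval of 0.015 to 0.65. CHR4-0094 had 0 reads in each library at 37 °C, which allows up to 3 reads or 2.27 to 2.43 FPKM per library, and 8 reads in all at 28 °C, so no fold is given. Both lost the call when replicate 1 or replicate 2 of Mut_Met was left out, with adjusted p from 0.072 to 0.15 from limma, and CHR4-0060 also lost it without replicate 2 of Mut_Met_37C. CHR4-0103 and CHR4-0109 lie just past a size of 1. Without replicate 1 of Mut_Met or replicate 2 of Mut_Met_37C CHR4-0103 came under it, as did CHR4-0109 without replicate 1 of Mut_Met_37C and CHR4-0093 without replicate 2 of Mut_Met, all with an adjusted p still under 0.05. With each library left out in turn the number of called members ranged from 2 to 5, and it was 4 without replicate 1 of Mut_Met_37C.

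The ends of the segment are limits of tag number and not of a pattern. Just inside, CHR4-0055 had 289.7, 281 and 288 FPKM in WT_Met, 257, 247 and 252 in Mut_Met and 162, 178 and 181 in Mut_Met_37C, and CHR4-0110 had 104, 105 and 103 FPKM in WT_Met, 129, 129 and 132 in Mut_Met and 85.6, 97.7 and 93.1 in Mut_Met_37C. Just outside, CHR4-0054 had mean values of 109.8 FPKM in WT_Met, 97.8 in Mut_Met and 204.1 in Mut_Met_37C, and CHR4-0111 had 2627, 1930 and 705.9 FPKM. The log2 fold changes of Mut_Met against WT_Met were -0.17 at CHR4-0054, -0.18 at CHR4-0055, 0.32 at CHR4-0110 and -0.46 at CHR4-0111. These are smaller in size than the median of the run, 0.97. The strains did not overlap at any of these genes. Of all tested genes, 32.2% had all Mut_Met libraries above those of WT_Met and 39.1% had all of them below. The next gene, CHR4-0112, was at -0.57. Against WT_Met, CHR4-0054 and CHR4-0111 differed more in Mut_Met_37C, by 0.89 and -1.92.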

How the data were processed

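The deposited table holds 1 value per gene and library for 9 libraries of 3 groups. The authors' values were taken as FPKM from their properties, since no source names the unit. The submitters' processing notes name CASAVA, HISAT2 2.0.5 and featureCounts 1.5.0-p3. The genome build is not given in the sources used here. The values of each gene were whole multiples of a step, which gave its reads and length, within 0.02 of a whole number, for 100% of the 49103 values above 0. Groups were compared in pairs with limma 3.58.1 (R 4.3.3) on log2(FPKM + 1), with genes of a mean of at least 1 FPKM in one group and Benjamini-Hochberg adjustment over all tested genes. Scripts were tested on simulated data. The study describes the replicates as biological replicates of fermentation cultures.

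The members and lists were chosen with earlier results of these data known. Named members were those of the run, the 3 nearest to each edge, the 3 highest and 3 lowest outside it, those called, the most abundant, those under the filter and those at the ends of the tag range. CHR4-0067, CHR4-0068, CHR4-0100, CHR4-0106 and CHR4-0108 were named after their values were seen, as was CHR4-0112 beyond the tag range. Alternatives were another pseudocount, no filter, other scalings, all groups in one fit, no intensity trend, limma-voom on recovered reads, a replicate block and each library left out. Intervals of read ratios are exact binomial and cover counting error only.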

Additional observations from a re-analysis of the deposited data

How the results depend on the processing

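Limits lay mainly in scaling and in genes with few reads. The members called numbered 11 (Mut_Met against WT_Met), 5 (Mut_Met_37C against Mut_Met) and 17 (Mut_Met_37C against WT_Met), and by the adjusted p alone 37, 36 and 37. With 1 library left out the counts ranged from 10 to 12, 2 to 5 and 16 to 18. For Mut_Met_37C against Mut_Met the count was 2 without Mut_Met replicate 1 or 2 and 3 without Mut_Met_37C replicate 2, as CHR4-0060 lost the adjusted p in all 3 fits and CHR4-0094 in the first 2, while CHR4-0103 or CHR4-0093 came under a size of 1. With 1 library left out, the median of the run ranged from 0.94 to 1.06, 0.14 to 0.23 and 1.18 to 1.22. The median before the run ranged from -0.025 to 0.040, -0.081 to 0.039 and -0.036 to 0.024, and that after it from -0.043 to 0.0070, -0.087 to -0.015 and -0.12 to -0.057.

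Scaled to the summed reads, the medians before and after the run were 0.039 and 0.031 for Mut_Met against WT_Met. The medians of the run, before it and after it were 0.59, 0.33 and 0.35 for Mut_Met_37C against Mut_Met and 1.64, 0.43 and 0.35 for Mut_Met_37C against WT_Met, since this scaling moved the median of all genes by 0.39 and 0.44. For Mut_Met_37C against Mut_Met it turned the direction of 3 of the named members with an adjusted p under 0.05 as deposited. These were CHR4-0065 to 0.10, CHR4-0082 to 0.19 and CHR4-0107 to 0.039. Further members under that adjusted p turned too, CHR4-0067 from -0.20 to 0.19 and CHR4-0068 from -0.30 to 0.094. So did CHR4-0100, from -0.18 to 0.21, and CHR4-0108, from -0.14 to 0.26. Of 1428 values of named members under the alternatives, 52 lost and 38 gained the threshold. Direction turned in 3, counted only where the adjusted p of the main fit was under 0.05. Turns from a main value not past it are left out of this count. Among these, with summed reads for Mut_Met_37C against Mut_Met, CHR4-0075 went from -0.095 to 0.30 and CHR4-0077 from -0.077 to 0.32. Chr4-0083 went from -0.025 to 0.37, CHR4-0084 from -0.035 to 0.36 and CHR4-0089 from -0.20 to 0.19.

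For Mut_Met against WT_Met the run began at tag 75 and ended at tag 92 as the longest stretch of groups not overlapping, and it ended at tag 87 with 0.7 subtracted and for Mut_Met replicate 2 alone. For Mut_Met_37C against WT_Met it spanned tags 61 to 93 with summed reads, began at tag 72 for Mut_Met_37C replicate 1 alone, and ended at tag 93 with 0.3 subtracted and at tag 88 as the longest stretch. With 1 library left out it was always tags 73 to 90. The cause of these shifts was not tested.

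With the replicate number as a block, 11, 5 and 17 members were called and the medians of the run were 0.97, 0.20 and 1.21. No source states that libraries of the same number share an origin. The correlations of same-numbered deviations were 0.026 to 0.083, -0.14 to 0.25 and -0.021 to 0.12. In the 3 comparisons, 4, 3 and 2 of 6 libraries correlated best with their own number.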
